A study of Macaca mulatta with 4 samples.

Results

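The genes described here are the early response genes JUN, JUNB, FOS, FOSB, EGR1, NR4A1, NR4A2, DUSP1, IER2 and ZFP36, read in single blood cells of rhesus macaque. They were chosen from an earlier reading of the same counts, in which JUN, FOS, EGR1, NR4A1 and DUSP1 stood higher in CD14+ monocytes after immunosuppression than before it, and lower again after a transplant. Their levels in CD14+ monocytes are therefore a description and carry no test. Of the 10 genes, 9 had a row under their symbol among the 15354 gene rows of each count table, and IER2 was not analysed here.

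Peripheral blood mononuclear cells came from a study in which islets made from human pluripotent stem cells were transplanted in macaques. The series holds 4 libraries, each the only one of its group. Pre-IS cells were drawn ahead of immunosuppression, and Post-IS cells followed it but preceded the transplant. Cells of 4 wpt and 8 wpt were drawn 4 and 8 weeks post-transplantation. The labels name no immunosuppressive drug and no age, do not state if 1 animal gave every library, nor how long immunosuppression lasted.

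Early response genes are transcribed within minutes of a stimulus, from promoters whose factors are already in place. JUN and FOS family proteins pair as the transcription factor AP-1, EGR1 and the NR4A nuclear receptors are further transcription factors of the same wave, and DUSP1 and ZFP36 act back on it. DUSP1 is a phosphatase that switches off MAP kinases, and ZFP36 (tristetraprolin) binds AU-rich mRNAs and speeds their decay. In monocytes these genes respond to microbial products, cytokines and adhesion, and they are also known to respond to the handling of cells.

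The tables held 1928, 603, 1882 and 2580 cells for Pre-IS, Post-IS, 4 wpt and 8 wpt, with a median of 1563, 1168, 3551 and 1877 UMIs (unique molecular identifiers, 1 for each captured RNA molecule) per cell. Cell classes are the authors' labels. Cells labelled CD14+ monocyte numbered 256, 329, 312 and 346, and the 6 classical monocyte markers (CD14, LYZ, S100A8, S100A9, VCAN and FCN1) were all detected in them in each library. Cells labelled MS4A7+ monocyte numbered 75, 131, 207 and 65, and all 6 nonclassical markers (MS4A7, CX3CR1, C1QA, C1QB, C1QC and CDKN1C) were detected in each library. Detection alone does not set the labels apart, since Post-IS CD14+ monocytes also held all 6 nonclassical markers. In Pre-IS and Post-IS these summed to 2989 and 2502 CPM in MS4A7+ and 224 and 419 CPM in CD14+ monocytes. The classical markers summed to 1829 and 1951 CPM in MS4A7+ and 21853 and 22792 CPM in CD14+ monocytes. T cells numbered 841, 115, 889 and 1174 and held all 5 T cell markers. Post-IS NK and B cells were too few, at 9 and 12, to be compared. Between 0 and 12 cell barcodes were shared by any pair of libraries.

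Levels are CPM, the UMIs of a gene per 1000000 UMIs of a class in a library, with exact Poisson 95% intervals. Ratios of CPM have exact conditional binomial 95% intervals. All intervals treat UMIs as independent and cover counting error only, so none of them speaks to the spread between animals or between repeat draws. A gene was measured in a comparison where both libraries together held at least 20 UMIs, and it is called higher or lower at 1.5-fold or more. No test between libraries was possible with 1 library per group. In blood sampled this way, a change in which monocytes are present and a change in RNA per monocyte cannot be told apart.

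FOS, the AP-1 subunit with most UMIs, had 1961, 4741, 437 and 590 CPM in CD14+ monocytes of the Pre-IS, Post-IS, 4 wpt and 8 wpt libraries. FOSB, its close relative, had 131, 446, 27.2 and 33.7 CPM. For both genes the Post-IS library was highest, the Pre-IS library second, and both libraries after the transplant lay below Pre-IS. The Post-IS level was 2.42-fold (95% interval 2.25 to 2.60) the Pre-IS level for FOS and 3.39-fold (2.58 to 4.51) for FOSB. At 4 wpt FOS was 4.49-fold (4.03 to 4.99) and FOSB 4.83-fold (3.14 to 7.56) lower than in Pre-IS cells.

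JUN, the partner that gives AP-1 its name, had 96.7, 682, 38.3 and 44.3 CPM over the same series of libraries. Its Post-IS level was 7.05-fold (5.26 to 9.63) that of Pre-IS, the highest of the 9 ratios in CD14+ monocytes, with an interval that overlaps that of EGR1. JUNB, a weaker partner that can hold JUN activity down, had 538, 1016, 300 and 324 CPM and a Post-IS level 1.89-fold (1.63 to 2.19) that of Pre-IS. At 8 wpt JUN was 2.18-fold (1.44 to 3.32) and JUNB 1.66-fold (1.41 to 1.95) lower than in Pre-IS cells.

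EGR1, a zinc finger factor, followed the same order, with 91.2, 421, 18.7 and 25.02 CPM. Its Post-IS level was 4.62-fold (3.37 to 6.44) that of Pre-IS, and its 4 wpt level was 4.87-fold (2.90 to 8.45) lower than Pre-IS. NR4A1, an orphan nuclear receptor, had 63.9, 205, 6.81 and 12.5 CPM, so that the last 2 libraries rested on 8 and 13 UMIs. Its 4 wpt level was 9.38-fold (4.28 to 23.4) lower than that of Pre-IS, the furthest of the 8 genes measured in that comparison, though its interval overlaps those of FOS, FOSB and EGR1. NR4A2, the related receptor, gave 9, 12, 3 and 1 UMIs. Its Post-IS to Pre-IS ratio of 1.63 had an interval of 0.63 to 4.38, so its direction was not resolved at this depth.

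The feedback genes differed from each other. DUSP1 had 852, 2385, 340 and 311 CPM, and its Post-IS level was 2.80-fold (2.51 to 3.13) that of Pre-IS. ZFP36 had 1505, 1968, 697 and 868 CPM, and its Post-IS level was 1.31-fold (1.19 to 1.44) that of Pre-IS, under the 1.5-fold bound. At 4 wpt DUSP1 was 2.50-fold (2.19 to 2.87) and ZFP36 2.16-fold (1.96 to 2.38) below Pre-IS. In cells of 1000 to 2000 UMIs, a range chosen after the data were seen to hold depth alike, DUSP1 had 535 CPM at 4 wpt and 659 CPM in Pre-IS, only 1.23-fold (0.86 to 1.78) lower and under the 1.5-fold bound, while ZFP36 was 2.72-fold (1.997 to 3.75) lower. At 8 wpt, in cells of that range, DUSP1 was 1.92-fold (1.34 to 2.78) lower than in Pre-IS.

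**Figure D1:**
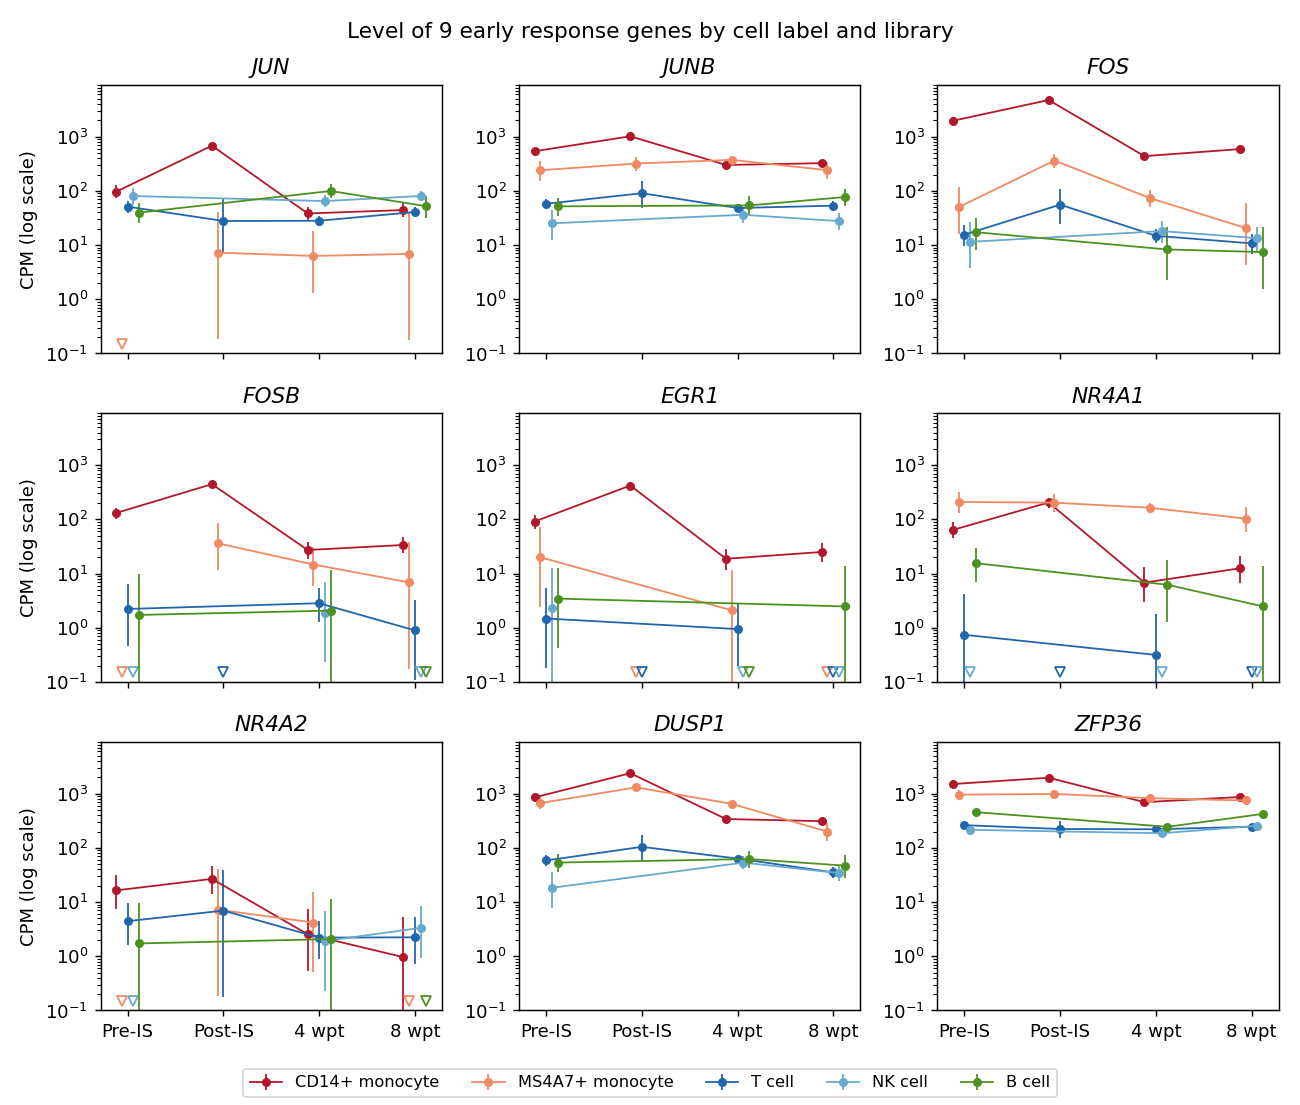
CPM (log scale) of each of the 9 genes in the Pre-IS, Post-IS, 4 wpt and 8 wpt libraries, 1 line per cell label, with exact Poisson 95% intervals. Open triangles mark 0 UMIs, and classes under 50 cells in a library are left out, so the NK and B cell lines pass over Post-IS. CD14+ monocytes are highest in the Post-IS library for all 9 genes, while NR4A1 in MS4A7+ monocytes ranges from 210 CPM in Pre-IS to 103 CPM at 8 wpt.

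Counted together in CD14+ monocytes, 8 of 9 measured genes were higher in Post-IS than in Pre-IS, beside 16.6% of all 5152 genes measured there, with a median log2 ratio of 1.48 against 0.04 over all genes. All 8 measured genes were lower at 4 wpt than in Post-IS, beside 15.4% of all genes, and all 8 were lower at 8 wpt than in Post-IS, beside 13.5%. These comparisons were among those the genes were chosen from and share the Post-IS library, so nothing is read from the counts. Set against Pre-IS, all 8 measured genes were lower at 4 wpt, beside 12.4% of all genes, with a median log2 ratio of -1.75. All 8 were also lower at 8 wpt, beside 9.45% of all genes, with a median of -1.59. In cells of 1000 to 2000 UMIs 5 of 6 measured genes were lower at 4 wpt than in Pre-IS, all but DUSP1, and FOSB was 2.63-fold (0.94 to 9.07) lower there. Both comparisons use the same Pre-IS library and the same CD14+ levels that were known when the genes were chosen. Between 8 wpt and 4 wpt the median was 0.31, and 1 of 8 genes, NR4A1, was called higher, beside 10.4% of all genes. Its interval, 0.71 to 5.12, included 1. In cells of 1000 to 2000 UMIs NR4A1 was too rare to measure in that comparison, ZFP36 was 1.59-fold (1.15 to 2.24) higher at 8 wpt and DUSP1 was 1.56-fold (1.03 to 2.35) lower.

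Depth ran opposite to these levels. The median CD14+ monocyte held 2058.5, 1196, 3190 and 2853.5 UMIs in Pre-IS, Post-IS, 4 wpt and 8 wpt, and mitochondrial genes took 0.792%, 1.24%, 1.03% and 0.894% of UMIs. The part of the mitochondrial share in the result was not tested. Depth was held alike by reading only cells of 1000 to 2000 UMIs. In 87, 109, 64 and 93 such cells, the 9 genes summed to 4968, 12708, 1961 and 2244 CPM, against 5256, 11892, 1868 and 2209 CPM over all CD14+ monocytes. The order of Post-IS, Pre-IS and then the 2 later libraries was the same at both readings.

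**Figure D2:**
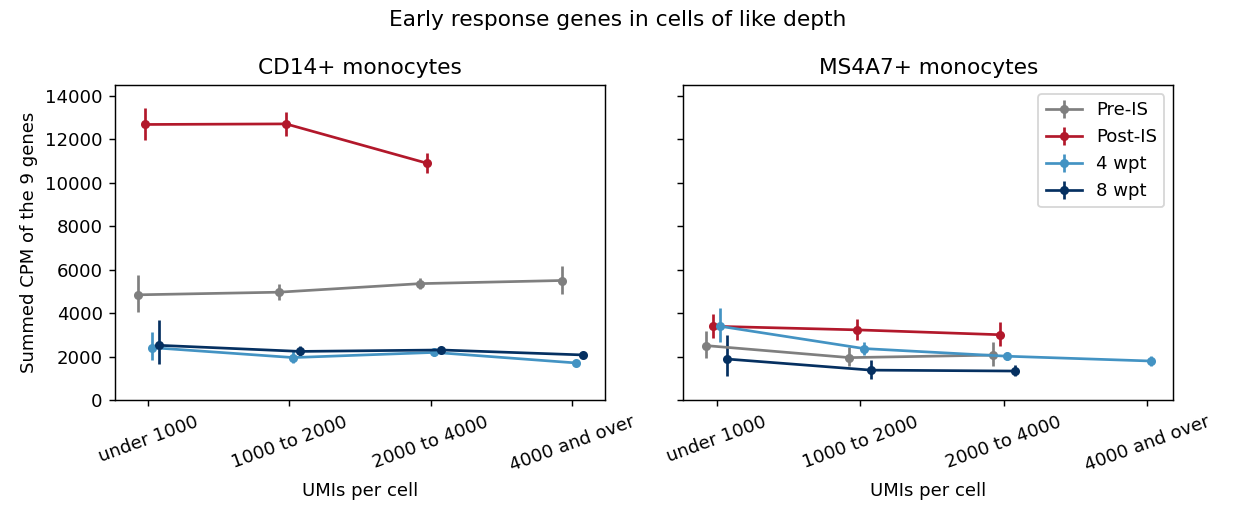
Summed CPM of the 9 genes in CD14+ and MS4A7+ monocytes, split by UMIs per cell, with exact Poisson 95% intervals. Bins with under 10 cells are left out. In CD14+ monocytes of 1000 to 2000 UMIs the sum is 12708 CPM in the Post-IS library, above 4968 CPM in Pre-IS, 1961 CPM at 4 wpt and 2244 CPM at 8 wpt.

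Platelet RNA also differed between the libraries. In CD14+ monocytes the 6 platelet markers (PF4, PPBP, ITGA2B, GP9, GP1BB and TUBB1) summed to 25.5, 268, 21.3 and 201 CPM in the Pre-IS, Post-IS, 4 wpt and 8 wpt libraries. Of the 6, the Pre-IS library had 3 detected, with PF4, ITGA2B and GP9 at 0, the 4 wpt library had 2, and the Post-IS and 8 wpt libraries had all 6. The share of cells with a platelet UMI was 3.52%, 15.5%, 3.53% and 14.2%. In cells with no platelet UMI the 9 genes summed to 5176, 11902, 1859 and 2209 CPM, close to the sums over all CD14+ cells.

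The higher Post-IS level was spread over most CD14+ monocytes. The median cell gave 4.74, 11.8, 1.68 and 2.01 UMIs of the 9 genes per 1000 UMIs in Pre-IS, Post-IS, 4 wpt and 8 wpt. The 10th percentile of Post-IS cells, 5.63 per 1000, lay above the median of each of the other 3 libraries, while the 90th percentile of 4 wpt cells was 3.83.

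Shares of CD14+ cells with a UMI depend on depth, so each is given for all cells and again with each cell of at least 1000 UMIs thinned to 1000. This left 221, 187, 283 and 334 CD14+ cells and set aside 35, 142, 29 and 12. FOS was seen in 89.1%, 95.1%, 66.3% and 66.5% of CD14+ cells, and in 78.3%, 94.1%, 37.5% and 45.2% after thinning. EGR1 was seen in 16.4%, 35.0%, 5.45% and 5.49%, and in 6.79%, 32.1%, 2.12% and 1.497% after thinning. Setting aside cells under 1000 UMIs and thinning the rest thus left the Post-IS share of both genes nearly as it was and lowered the other 3 libraries. The shares before and after are of different cells, most of all in Post-IS, where 142 shallow cells were set aside. For JUNB the shares before and after thinning differed in order. It was seen in 58.2%, 56.5%, 54.8% and 51.2% of cells, 4 values with overlapping intervals, but in 38.5%, 59.9%, 23.7% and 25.1% after thinning.

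**Figure D3:**
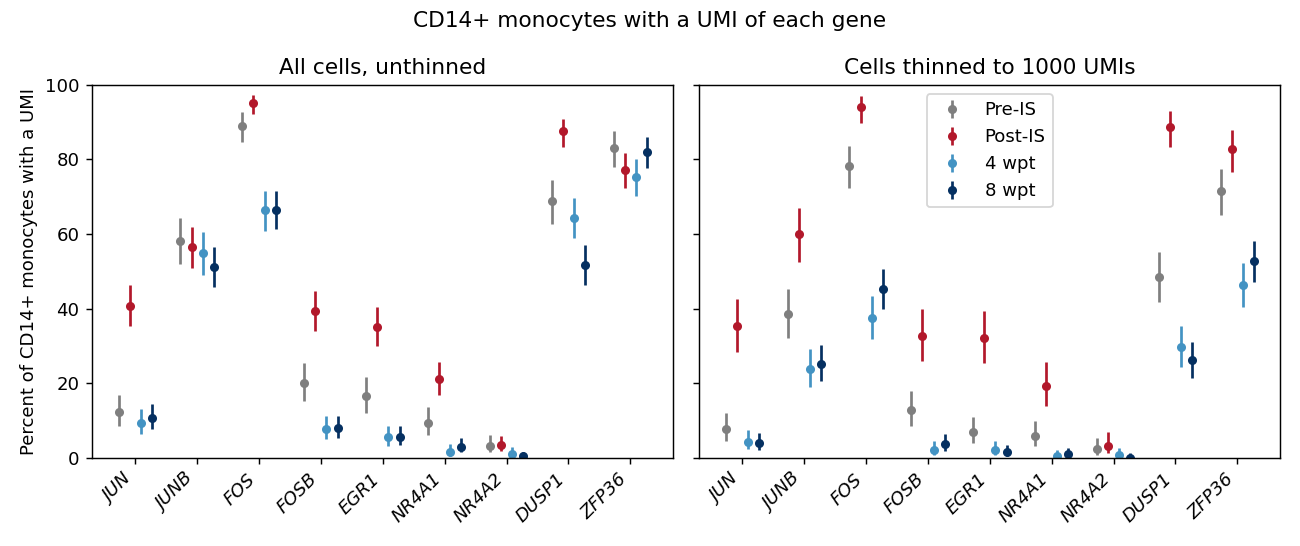
Percent of CD14+ monocytes with at least 1 UMI of each gene, for all cells (left) and for cells thinned to 1000 UMIs (right), with exact Clopper-Pearson 95% intervals. After thinning the Post-IS point is highest for every gene, for example 88.8% for DUSP1, against 48.4% in Pre-IS cells.

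The genes were also read together in single cells. At 1000 UMIs per cell, a CD14+ monocyte showed on average 2.72, 4.48, 1.47 and 1.59 of the 9 genes in Pre-IS, Post-IS, 4 wpt and 8 wpt. The share with 5 or more was 7.69% (95% interval 4.54 to 12.0), 50.3% (42.9 to 57.6), 0.707% (0.0857 to 2.53) and 0.898% (0.186 to 2.60). Without thinning it was 24.6%, 52.6%, 9.94% and 8.38%. The order of Post-IS above Pre-IS above both later libraries held at both depths.

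Within a library, however, the median pair of genes was seen together only a little more often than the product of their single shares gives. Over pairs with at least 5 such cells at 1000 UMIs, the median ratio of seen to product was 1.10 over 22 pairs in Pre-IS, 1.04 over 30 pairs in Post-IS, 1.12 over 7 pairs at 4 wpt and 1.19 over 10 pairs at 8 wpt. The highest ratio was 1.68 in Pre-IS (JUN with JUNB), 1.80 at 4 wpt (JUN with ZFP36) and 2.03 at 8 wpt (FOS with FOSB). The lowest ratio of each library lay between 0.905 and 0.956. In Post-IS cells the pair furthest above was JUN with EGR1, at 1.32. JUN was seen in 46.7% of EGR1-positive and 29.9% of EGR1-negative Post-IS cells, and without thinning in 52.2% and 34.6%. FOS with DUSP1, both in most cells, were seen together in 83.4% of Post-IS cells, beside a product of 83.5%. For genes this common the ratio cannot rise far above 1, so little can be read from it. Shares were highest in Post-IS, which limits its ratios most.

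**Figure D4:**
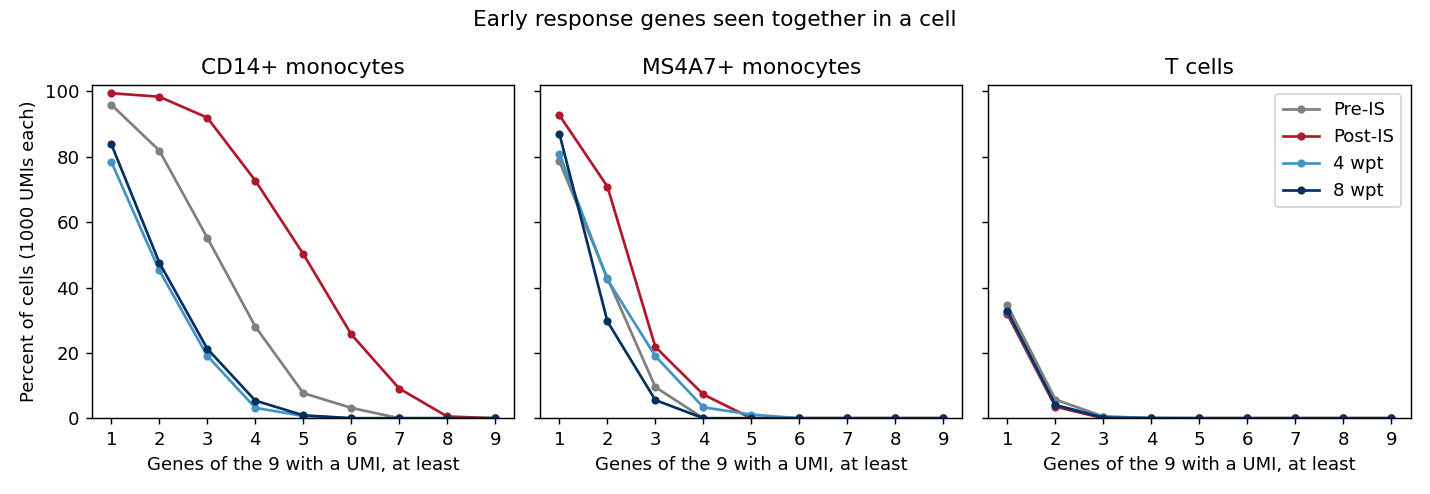
Percent of cells, each thinned to 1000 UMIs, in which at least the number of genes on the horizontal axis (of 9) had a UMI, for CD14+ monocytes, MS4A7+ monocytes and T cells, with 1 line per library. At 5 or more genes the Post-IS line of CD14+ monocytes is at 50.3% and the Pre-IS line at 7.69%, while T cell lines lie close to each other.

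MS4A7+ monocytes, the cells with nonclassical markers, carried another mixture of the same genes. NR4A1 had 210, 203, 164 and 103 CPM there in Pre-IS, Post-IS, 4 wpt and 8 wpt. JUN gave 0, 1, 3 and 1 UMIs, FOSB 0, 5, 7 and 1, EGR1 2, 0, 1 and 0, and NR4A2 0, 1, 2 and 0. In these cells NR4A1 was thus present while most other transcription factors of the list were near the limit of detection. At 4 wpt NR4A1 was 24.0-fold (11.6 to 57.6) lower in CD14+ than in MS4A7+ monocytes, with 6.81 and 164 CPM. In Post-IS cells the 2 classes had 205 and 203 CPM, a ratio of 1.01 (0.66 to 1.60). Between Post-IS and Pre-IS the MS4A7+ level of NR4A1 differed by a ratio of 0.968 (0.53 to 1.79), where the CD14+ ratio was 3.21 (2.15 to 4.89).

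Of 5 genes measured in MS4A7+ monocytes, 2 were higher in Post-IS than in Pre-IS, beside 18.4% of all genes, with a median log2 ratio of 0.40. FOS had 363 CPM in Post-IS and 49.98 CPM in Pre-IS cells, a ratio of 7.26 (2.91 to 23.3) that rests on 5 Pre-IS UMIs. DUSP1 had 1306 CPM in Post-IS and 670 CPM in Pre-IS cells, a ratio of 1.95 (1.46 to 2.62). The ratios of JUNB, NR4A1 and ZFP36 lay between 0.968 and 1.33 with intervals that included 1. In cells of 1000 to 2000 UMIs, 40 in Post-IS and 30 in Pre-IS, JUNB passed 1.5-fold at 1.61 (0.66 to 4.31), an interval that includes 1. FOS had a ratio of 6.81 (1.63 to 60.5) there, on 2 Pre-IS UMIs. DUSP1 had 2.21 (1.37 to 3.67) and ZFP36 1.31 (0.86 to 2.02), and NR4A1 was too rare to measure. FOS in CD14+ monocytes of the Post-IS library was 13.1-fold (9.88 to 17.7) the MS4A7+ level, and the 6 classical markers summed to 1951 CPM in Post-IS and 1829 CPM in Pre-IS MS4A7+ monocytes. The part of CD14+ monocyte RNA in the FOS result was not tested.

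Relative to Pre-IS, MS4A7+ monocytes did not show the lower 4 wpt levels of CD14+ monocytes when all cells were read. Of 5 genes, 1 was called higher at 4 wpt than in Pre-IS, beside 22.6% of all genes. This was JUNB, with 373 CPM at 4 wpt and 240 CPM in Pre-IS cells, a ratio of 1.56 (1.01 to 2.49). DUSP1 had 648 CPM at 4 wpt and 670 CPM in Pre-IS cells. In cells of 1000 to 2000 UMIs, 78 at 4 wpt and 30 in Pre-IS, JUNB had a ratio of 2.19 (1.02 to 5.36). NR4A1 was 1.55-fold (0.67 to 3.44) lower there, with an interval that includes 1. DUSP1, at a ratio of 1.20 (0.75 to 1.98), and ZFP36, at 1.03 (0.70 to 1.54), were inside 1.5-fold, and FOS was too rare to measure. At 8 wpt 2 of 4 measured genes were lower than in Pre-IS, beside 16.8% of all genes, and DUSP1 was 3.36-fold (2.15 to 5.39) lower, at 199 CPM. The other was NR4A1, 2.04-fold lower, on 15 UMIs at 8 wpt and 21 in Pre-IS. Among MS4A7+ monocytes of 1000 to 2000 UMIs, 21 at 8 wpt and 30 in Pre-IS, DUSP1 was 1.24-fold (0.62 to 2.60) lower, under the bound. ZFP36 was 1.58-fold (0.87 to 2.99) lower there, with an interval that includes 1, and NR4A1 was too rare to measure. Against Post-IS, 2 of 5 genes were lower at 4 wpt, beside 15% of all genes, and 3 of 5 at 8 wpt, beside 22.2%. FOS and DUSP1 were lower in both, and NR4A1 at 8 wpt, 1.97-fold (1.02 to 3.97). Between 8 wpt and 4 wpt 4 of 5 genes were lower, beside 27.7% of all genes, whose median log2 ratio was itself -0.11. These were JUNB, FOS, NR4A1 and DUSP1, and the median of the 5 was -0.63. At like depth, 1000 to 2000 UMIs, the NR4A1 ratio of 8 wpt to 4 wpt was 0.974 (0.28 to 2.70) and that of DUSP1 0.673 (0.35 to 1.20), both inside 1.5-fold. JUNB was 2.12-fold (0.90 to 6.06) and ZFP36 1.62-fold (0.96 to 2.89) lower in that range. Both passed 1.5-fold with intervals that include 1, and FOS was too rare to measure.

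**Figure D5:**
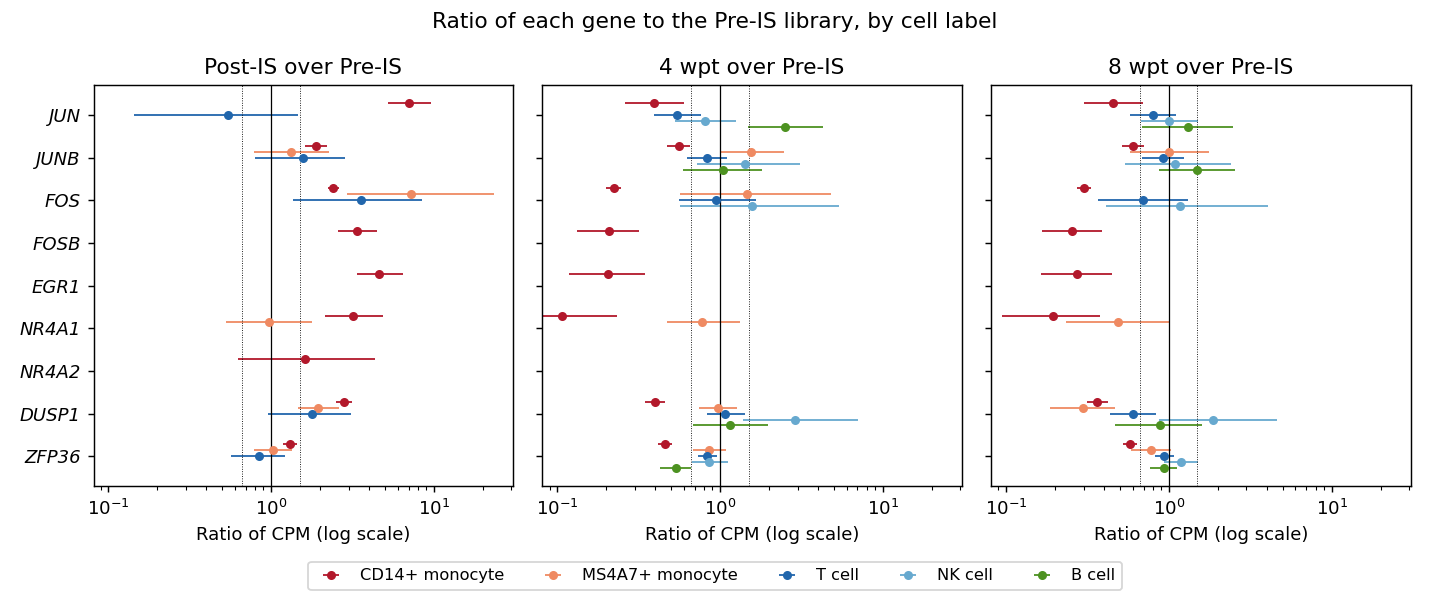
Ratio of CPM (log scale) of each measured gene in the Post-IS, 4 wpt and 8 wpt libraries to the shared Pre-IS library, by cell label, with exact conditional binomial 95% intervals. The solid line is a ratio of 1 and the dotted lines are 1.5-fold. CD14+ monocytes lie right of 1 in Post-IS and left of 1 in both later libraries, while MS4A7+ monocytes, T, NK and B cells lie on both sides.

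Lymphocytes held few UMIs of these genes. The 9 genes summed to 454, 508, 381 and 389 CPM in T cells of Pre-IS, Post-IS, 4 wpt and 8 wpt, and ZFP36 made up 262, 223, 220 and 246 CPM of it. Thinned to 1000 UMIs, 65.5%, 68.2%, 67.6% and 67.3% of T cells showed none of the 9. FOSB, EGR1 and NR4A1 each gave between 0 and 9 UMIs in T cells of any library.

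Genes of monocytes were also seen in T cells. In Post-IS T cells FOS had 55.7 CPM, which is 1.17% of the CD14+ level, and was seen in 5.22% of cells. LYZ and S100A8, monocyte genes that T cells should lack, were seen in 4.35% and 6.09% of the same cells. Of the 6 classical markers, CD14 had 2.19%, S100A8 0.823%, S100A9 0.711% and LYZ 0.394% of the CD14+ level, while FCN1 and VCAN gave 0 UMIs, which by exact interval allows up to 2.77% and 1.67%. The median depth was 1257 UMIs in these T cells and 1196 in CD14+ monocytes. The share of T cells with FOS lay between those with LYZ and S100A8, so no expression is read from it, and the part of monocyte RNA in the FOS level was not tested. JUN differed, since its T cell level was 52.9%, 4.08%, 73.3% and 92.0% of the CD14+ level in the 4 libraries, while LYZ stayed between 0.109% and 0.394%. Outside Post-IS, JUN was thus at 28.1 to 51.1 CPM in T cells and at 38.3 to 96.7 CPM in CD14+ monocytes.

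Of 5 genes measured in T cells, 3 were called higher in Post-IS than in Pre-IS, beside 14.4% of all genes, and 1 lower, beside 28.4%. The higher ones were FOS, JUNB and DUSP1. The FOS ratio was 3.58 (1.37 to 8.41), on 8 and 21 UMIs, beside the monocyte genes given above. The JUNB ratio was 1.57 (0.80 to 2.84) and the DUSP1 ratio 1.78 (0.95 to 3.12), and JUN was 1.84-fold (0.69 to 6.93) lower. The intervals of JUNB, DUSP1 and JUN include 1. The median log2 ratio was 0.69 over the 5 genes, and -0.01 over the 4 genes still measured in cells thinned to 1000 UMIs. In T cells of 1000 to 2000 UMIs, 77 in Post-IS and 600 in Pre-IS, ZFP36 was 1.62-fold (1.007 to 2.78) lower in Post-IS. JUNB had a ratio of 1.92 (0.90 to 3.74) there. DUSP1, at a ratio of 1.32 (0.54 to 2.79), and JUN, 1.29-fold (0.47 to 4.94) lower, were inside 1.5-fold, and FOS was too rare to measure. Against Pre-IS, 1 of 5 genes was lower in T cells at 4 wpt, beside 7.15% of all genes, and 1 of 5 at 8 wpt, beside 5.52%. The first was JUN, 1.82-fold (1.31 to 2.52) lower, and the second DUSP1, 1.66-fold (1.20 to 2.29) lower. Neither passed 1.5-fold at like depth. In T cells of 1000 to 2000 UMIs JUN had 52.2 CPM at 4 wpt and 50.1 CPM in Pre-IS, a ratio of 1.04 (0.40 to 2.33) on 7 and 45 UMIs. In the same range DUSP1 had 44.2 CPM at 8 wpt and 59.0 CPM in Pre-IS, 1.33-fold (0.89 to 2.02) lower.

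In NK cells JUN stayed at 80.2, 64.8 and 80.3 CPM in Pre-IS, 4 wpt and 8 wpt, and NR4A1 gave 0 UMIs in each of these libraries. At 4 wpt 2 of 5 measured genes were higher than in Pre-IS, beside 17.5% of all genes. DUSP1 had 53.4 CPM at 4 wpt and 18.3 CPM in Pre-IS NK cells, a ratio of 2.91 (1.38 to 7.07) on 56 and 8 UMIs. NK cells of 1000 to 2000 UMIs numbered 17 at 4 wpt and 191 in Pre-IS, and DUSP1 was too rare to measure at like depth. FOS was the other, with a ratio of 1.58 (0.57 to 5.42) that was not resolved. At 8 wpt 1 of 5, DUSP1, was called higher, beside 15.4%, with a ratio of 1.87 (0.87 to 4.62).

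In B cells 1 of 4 measured genes was higher at 4 wpt than in Pre-IS, beside 15.8% of all genes, and 1 was lower, beside 12.4%. JUN had 99.5 CPM at 4 wpt and 39.7 CPM in Pre-IS B cells, a ratio of 2.51 (1.49 to 4.32). Cells of 1000 to 2000 UMIs numbered 7 at 4 wpt, too few to read JUN at like depth. ZFP36 had 245 CPM at 4 wpt and 456 CPM in Pre-IS B cells, 1.86-fold (1.49 to 2.34) lower. At 8 wpt 0 of 4 genes passed 1.5-fold in either direction, beside 11.3% of all genes higher and 11.8% lower. The B cells of 8 wpt had 52.0 CPM of JUN and 424 CPM of ZFP36, both within counting error of Pre-IS.

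Other genes of the same network were read from lists chosen, like the genes above, with earlier results of these data known. Among other early response genes, 7 of 10 measured in CD14+ monocytes were at least 1.5-fold higher in Post-IS than in Pre-IS, beside 16.6% of all genes, and 1 was lower, beside 13%, with a median log2 ratio of 1.10. The lower one, named after its value was seen, was MYC, 1.79-fold (1.06 to 3.11) lower. KLF6, a zinc finger factor, had 751 CPM in Post-IS and 230 CPM in Pre-IS cells. SGK1, a kinase that is also a known glucocorticoid target, had 181 CPM in Post-IS and 45.6 CPM in Pre-IS cells, and MCL1, a survival factor, had 807 CPM in Post-IS and 383 CPM in Pre-IS cells. At 4 wpt 1 of the same 10 genes differed from Pre-IS by 1.5-fold, beside 12.4% of all genes lower, which was BTG2, 1.77-fold (1.49 to 2.09) lower. Their median log2 ratio then was -0.20, where the AP-1, EGR1, NR4A1, DUSP1 and ZFP36 set had -1.75. In cells thinned to 1000 UMIs that set had -1.06 over 7 measured genes. The set was chosen with its low level after the transplant known, so nothing is read from the gap.

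Among the other AP-1 subunits and partners, 3 of 6 were higher in Post-IS CD14+ monocytes than in Pre-IS, beside 16.6% of all genes, with MAFG at a ratio of 3.26 (1.21 to 10.2), ATF3 at 1.88 (0.89 to 4.11) and, named after its value was seen, JDP2 at 1.56 (0.81 to 3.07). The intervals of ATF3 and JDP2 include 1. ATF4, with the most UMIs of the 6 at 125 and 202, went the other way. Its ratio was 0.756 (0.60 to 0.95), inside 1.5-fold. Of the other feedback genes, 0 of 3 passed 1.5-fold, beside 16.6% of all genes higher and 13% lower, so nothing is read from so few. DUSP6, which acts on ERK, had a ratio of 1.42 (1.17 to 1.71). ZFP36L1, a relative of ZFP36, had 584 CPM in Post-IS and 607 CPM in Pre-IS cells. Of the upstream kinases and factors, 3 of 9 were higher, beside the same 16.6%, namely MAP2K2 (MEK2) at 1.75 (1.28 to 2.40), ELK3 at 2.004 (1.19 to 3.44) and ELK1 at 1.83 (0.77 to 4.56), whose interval includes 1. Of the other EGR and NR4A genes none was measured in this comparison.

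Messenger RNAs known as targets of ZFP36 were mostly too rare to measure. PTGS2, which encodes cyclooxygenase 2, had 227 CPM in Post-IS and 63.9 CPM in Pre-IS CD14+ monocytes, a ratio of 3.56 (2.40 to 5.39). At 4 wpt it had 11.9 CPM, 5.36-fold (2.81 to 10.8) lower than Pre-IS, and at 8 wpt 8.66 CPM, 7.37-fold (3.47 to 17.4) lower. As for FOS, the Post-IS level was highest and the Pre-IS level second, but the 8 wpt level of PTGS2 was below that of 4 wpt, where FOS had the other order. IL1B, another target, had 89.2 CPM in Post-IS and 106 CPM in Pre-IS cells, a ratio of 0.843 (0.55 to 1.28).

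Across the 20 pairs of class and library with at least 50 cells, the profile of each gene was set against the mean of the other members on the scale log2(CPM + 10). Pearson's r was 0.946 for FOSB, 0.916 for JUNB, 0.912 for FOS, 0.899 for ZFP36, 0.896 for DUSP1 and 0.860 for EGR1. It was 0.778 for NR4A2, 0.674 for NR4A1 and 0.279 for JUN. The points share libraries, depth and the contrast of monocytes with lymphocytes, so these values describe the set only. Of 7106 other genes ranked against the mean profile, the most alike was CEBPD, a C/EBP factor, at 0.938, followed by CD163, FEM1C, ANG, APOBEC3A, OGFRL1, DGAT2 and RBM47 at 0.900 to 0.881. CEBPD had 261, 863, 187 and 208 CPM in CD14+ monocytes of the 4 libraries. CD163, a scavenger receptor, had 283, 649, 515 and 312 CPM, so its likeness to the set did not extend to the low level at 4 wpt.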

How the data were processed

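Cells were captured with 10x Genomics 5' V1 kits and sequenced in 150 bp pairs on a HiSeq X, per the labels' protocols. Cell Ranger 3.1.0, Seurat 3.2.3 and the build Mmul_10 are named in the submitters' processing notes. The authors deposited raw UMI counts per gene and cell, with no normalisation, and a cell type label per barcode. How they chose the cells and labels is not given in the sources used here, and no doublet caller was run. Instead, cells with at least 2 markers of another lineage or over 3 times the median UMIs of their class were left out as an alternative (43, 28, 57 and 83 cells of Pre-IS, Post-IS, 4 wpt and 8 wpt).

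UMIs were summed per label and library. A class was compared where both libraries held at least 50 of its cells. Log2 ratios used an offset of 0.5 UMIs. The ratio step was tested on simulated data. Python 3.11.15, numpy 2.4.6, scipy 1.17.1, pandas 2.3.3 and edgeR 4.0.16 in R 4.3.3 (for TMM factors only) were used. All members are named, and up to 4 genes per other list, taken among those whose interval bound nearest to 1 lay farthest from it. FOSL1, EGR4, CCN1 and RHOB of those lists had no row under their symbols. The reference table gave symbols to 400 of 2559 rows that carry an identifier. Members, lists and tests were chosen with earlier results of these data known. Alternatives covered scaling, weighting, depth, doublets, minimum, offset, pooled labels and single cells.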

Additional observations from a re-analysis of the deposited data

Results flagged for a closer look

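Between 4 wpt and Pre-IS, 3 of the genes were called in opposite directions in different cell classes, with both counting intervals on their own side of 1. The share of all genes with such opposite calls was not computed, so nothing is read from this count. Of all genes, 15.8% were called higher in B cells, 17.5% in NK cells and 22.6% in MS4A7+ monocytes. In T cells 7.15% and in CD14+ monocytes 12.4% were called lower. The difference between classes was not tested, and each class is 1 library per group. JUN was 2.51-fold higher in B cells at 4 wpt than in Pre-IS, with a ratio of 0.549 in T cells and 0.396 in CD14+ monocytes. In T cells of 1000 to 2000 UMIs the JUN ratio was 1.04, so the T cell side was lost at like depth. In CD14+ monocytes and B cells of that range JUN was too rare to measure. DUSP1 was 2.91-fold higher in NK cells, on 56 UMIs at 4 wpt and 8 in Pre-IS, with a ratio of 0.399 in CD14+ monocytes. In CD14+ cells of 1000 to 2000 UMIs the DUSP1 ratio was 0.811, inside 1.5-fold. In NK cells of that range, 17 at 4 wpt, DUSP1 was too rare to measure. JUNB was 1.56-fold higher in MS4A7+ monocytes, with a ratio of 0.558 in CD14+ monocytes. Cells of that range had JUNB ratios of 2.19 in MS4A7+ and 0.449 in CD14+ monocytes.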

How the results depend on the processing

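Ratios in all 19 pairs of comparison and class were recomputed under 14 alternatives, 2 of them (cells of 1000 to 2000 UMIs, and cells without platelet UMIs) chosen after seeing the data. Of 1455 single gene values, 1362 stayed inside the counting interval of the reported value, 88 moved outside it and 5 that were called reversed. Counting genes called or not, 53 values lay on the other side of no change. Of 259 medians, 245 stayed inside their bounds. Counts below are of genes past 1.5-fold, and medians and gene values are log2 ratios.

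In cells of 1000 to 2000 UMIs the JUN value in T cells, 4 wpt over Pre-IS, reversed to 0.14, and that of NR4A1 in MS4A7+ monocytes, 8 wpt over 4 wpt, to 0.062. In this range the CD14+ median for 4 wpt over Post-IS was -3.29, and 5 genes were lower at 4 wpt than in Pre-IS. MS4A7+ monocytes had 1 gene lower for 8 wpt over Pre-IS and 2 for 8 wpt over 4 wpt. T cells had 1 higher for Post-IS over Pre-IS and 0 lower for 8 wpt over Pre-IS. NK cells had 0 higher for 4 wpt over Pre-IS, with 2 genes measured. B cells had 0 higher and a median of -0.98 at 4 wpt, with 1 gene measured, and 1 higher at 8 wpt.

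With cells thinned to 1000 UMIs the T cell median for Post-IS over Pre-IS reversed to -0.014, with 4 genes measured and 2 lower. For 4 wpt over Pre-IS the CD14+ median was -1.06, 2 genes were higher in MS4A7+ monocytes, 0 lower in T cells and 1 higher in NK cells. For 8 wpt over Pre-IS 2 genes were lower in T cells, 2 higher in NK cells and 2 higher in B cells.

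Pooling both monocyte labels gave medians of 1.24, -2.90, -2.97, -1.22, -1.58 and 0.29 for Post-IS over Pre-IS, 4 wpt over Post-IS, 8 wpt over Post-IS, 4 wpt over Pre-IS, 8 wpt over Pre-IS and 8 wpt over 4 wpt. The last is reversed against the MS4A7+ median, as were FOS at 0.65 for 8 wpt over 4 wpt and JUNB at -0.62 for 4 wpt over Pre-IS, and NR4A1 at -1.12 for 8 wpt over 4 wpt is reversed against CD14+ monocytes. Against the MS4A7+ counts, pooling gave 8 higher in Post-IS than Pre-IS, 8 lower at 4 wpt and 8 lower at 8 wpt than Post-IS, 0 higher at 4 wpt and 8 lower at 8 wpt than Pre-IS, and 1 lower at 8 wpt than 4 wpt. Against the CD14+ count, 2 were higher at 8 wpt than 4 wpt. CD14+ monocytes gave most of the total UMIs of the pooled sums, but not of every gene. NR4A1 had 8 UMIs in CD14+ and 78 in MS4A7+ monocytes at 4 wpt, and 13 and 15 at 8 wpt.

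With no minimum on UMIs the CD14+ median for 4 wpt over Pre-IS was -2.16. The MS4A7+ counts were then 5 higher for Post-IS over Pre-IS, 4 lower for 4 wpt and 5 lower for 8 wpt over Post-IS, 4 higher for 4 wpt and 4 lower for 8 wpt over Pre-IS, and 7 lower for 8 wpt over 4 wpt. The T cell counts were 4 lower for Post-IS, 4 lower for 4 wpt and 5 lower for 8 wpt over Pre-IS. NK cells had 4 higher at 4 wpt and 2 at 8 wpt, and B cells 4 lower at each. A minimum of 50 UMIs gave 0 higher for 8 wpt over 4 wpt in CD14+ monocytes, 1 lower for 8 wpt over Pre-IS in MS4A7+ monocytes, and in NK cells 1 higher at 4 wpt and 0 at 8 wpt.

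The 1 gene reported higher in CD14+ monocytes for 8 wpt over 4 wpt was 0 without possible doublets and without the cell with most UMIs. The 1 reported higher in MS4A7+ monocytes for 4 wpt over Pre-IS was 2 under TMM, median of ratios, equal weights, without the cell with most UMIs and without platelet UMIs, and 0 with an offset of 2 UMIs. The 4 reported lower there for 8 wpt over 4 wpt were 2 under median of ratios, without possible doublets and with the offset of 2. The 1 reported lower in T cells for Post-IS over Pre-IS was 0 in cells of at least 1000 UMIs and with the offset of 2. The 1 reported lower in T cells at 8 wpt was 2 with equal weights, without possible doublets and without the cell with most UMIs. The 2 reported higher in NK cells at 4 wpt were 1 without possible doublets and with the offset of 2. The 0 reported higher in B cells at 8 wpt was 1 with equal weights, in cells of at least 1000 UMIs, without possible doublets and without platelet UMIs. The cause of these shifts was not tested.

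No paired analysis was possible because each group is 1 library. For the same reason a library could not be left out, and the intervals cover counting error only. At a count of 0, 3 UMIs allow up to 30.0 CPM in Pre-IS MS4A7+ monocytes and 21.8 CPM in Post-IS MS4A7+ monocytes, so JUN, FOSB, EGR1 and NR4A2 could not be compared there.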
